A study of Mus musculus with 5 samples.

Results

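Receptors for the constant part of IgG are described here together with the chain and kinase that carry their signal, in sorted mouse cells from tumors and lungs that carry the label PMN-MDSC, for polymorphonuclear suppressor cells of myeloid origin. The genes were chosen by symbol as a known family: Fcgr1, Fcgr3, Fcgr4, Fcgr2b, Fcer1g, Syk and Fcgrt, 7 of the 55276 rows of the deposited table. All 7 were found, and all 7 passed the filter on low values, a mean TPM of 1 or more. PMN-MDSCs are cells of the neutrophil lineage that restrain T cells and gather in tumor-bearing hosts. There were 2 wild-type tumor libraries, numbered 2 and 3 in the titles, and these were set against 3 wild-type lung libraries, numbered 1, 2 and 3. Each library came from at least 2000000 sorted cells and is stated to hold 20000000 paired reads. The labels name no sort markers, tumor model, strain, age or batch, and do not say that libraries were from separate animals, so p-values reflect the variation among 5 libraries and it could be technical.

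Fc gamma receptors let a leukocyte sense antibody bound to a target. Fcgr1 (CD64, high affinity), Fcgr3 (CD16) and Fcgr4 are the activating receptors of the mouse, and each needs the common gamma chain Fcer1g, whose tyrosine motif (ITAM) is phosphorylated by Src family kinases and then bound by the kinase Syk. Fcgr2b (CD32b) is the inhibitory receptor: it carries its own inhibitory motif and recruits the lipid phosphatase encoded by Inpp5d. Fcgrt encodes the heavy chain of FcRn, which pairs with beta-2-microglobulin and returns IgG from endosomes to the outside of the cell instead of sending it to lysosomes. Neutrophils are known to use Fcgr3 and Fcgr4 to take up immune complexes.

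Values are TPM, which are corrected for transcript length, so levels of different genes can be set side by side. Read counts cannot be had from TPM, and the depth of each value is unknown. Differences are tumor minus lung in log2(TPM + 1) with ± SE, a scale that understates changes of low genes. Adjusted p-values are from limma with Benjamini-Hochberg adjustment over 16387 genes, and a gene was called at an adjusted p under 0.05 and at least 1.5-fold.

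The tumor and lung libraries differed in far more than these genes. The leukocyte gene Ptprc (CD45) stood at 18.5 and 75.3 TPM in tumor, against 842, 926 and 959 TPM in lung. A list of 14 neutrophil genes summed to 1152 and 3918 TPM in tumor, with no member at 0, and to between 37259 and 63117 TPM in lung. A list of 10 epithelial genes summed to 6255 and 6274 TPM in tumor and to between 58.0 and 114 TPM in lung. By these markers the tumor libraries went against the label PMN-MDSC, with epithelial genes summing above neutrophil genes, and the lung libraries did not. In such mixed samples, fewer cells of a type and less RNA per cell cannot be told apart.

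Of the 7 genes, 4 were called lower in tumor and 0 higher, with a median difference of -1.44. Over all tested genes 27% were called lower and 31.6% higher, and the median difference was 0.018. Syk, Fcer1g, Fcgr4 and Fcgr3 fell in tumor, with differences of -3.78, -2.42, -2.88 and -1.44, while Fcgr2b, Fcgr1 and Fcgrt did not pass the test. These directions are relative to all transcripts of a library. After centring each library on 30 pan-leukocyte genes, the differences of Fcer1g, Fcgr3 and Fcgr4 were 1.28, 2.25 and 0.81. That of Syk was -0.094, and the median over all tested genes was 3.71. In both tumor libraries 4 of the 7 genes were below every lung library, where 35.7% of tested genes were, and 0 were above every lung library, where 39.9% of tested genes were. Of 34956 rows with a false discovery rate in the authors' deposited table, 223 are under 0.05, and 0 of the 7 genes are. The lowest among the 7 in the authors' deposited table is 0.0663, for Syk.

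**Figure D1:**
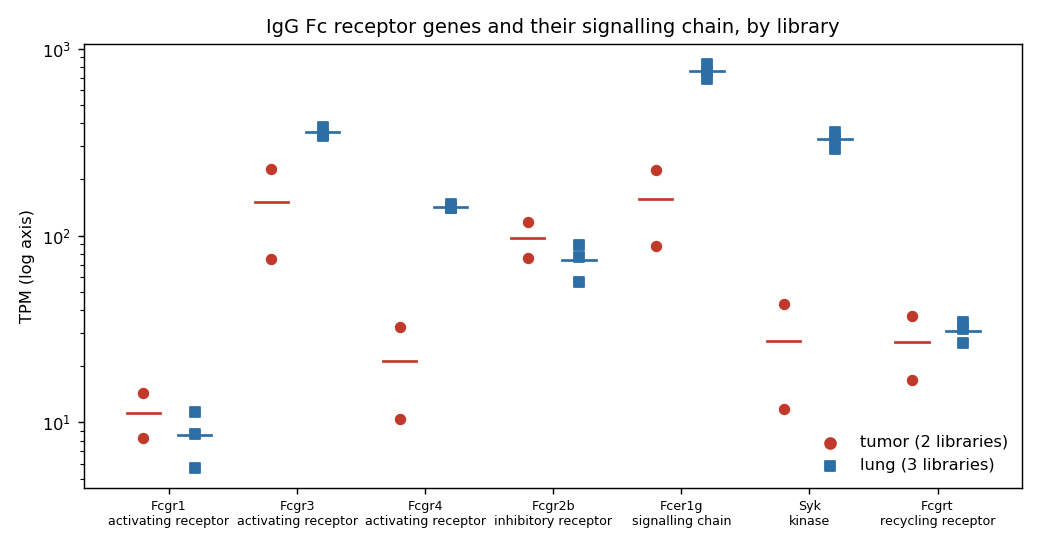
TPM of each gene on a log axis, in the 2 tumor libraries (red circles) and the 3 lung libraries (blue squares), with the group mean as a line. Tumor values of Fcgr3, Fcgr4, Fcer1g and Syk lie below all lung values, and those of Fcgr1, Fcgr2b and Fcgrt overlap the lung values.

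Fcgr3 was the most abundant of the activating receptors in every library. It was at 74.5 and 228 TPM in tumor, against 348, 379.5 and 343 TPM in lung. Both tumor values were below the lowest lung value, but they lay 3.05-fold apart, with tumor library 3 the higher. Fcgr3 fell in tumor, by 1.44 ± 0.48 (95% interval -2.67 to -0.21, limma adjusted p = 0.0494). That call was marginal, and it ended when any of the lung replicates 1, 2 and 3 was left out (limma adjusted p = 0.128, 0.148 and 0.141).

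Fcgr4 showed a larger difference. It was at 10.4 and 32.4 TPM in tumor, against 148, 140.5 and 140.6 TPM in lung. The lung libraries agreed within 1.06-fold, whereas tumor library 3 had 3.12 times the value of tumor library 2, and the groups did not overlap. Fcgr4 fell by 2.88 ± 0.47 (95% interval -4.08 to -1.69, limma adjusted p = 0.00535), a 6.68-fold lower mean. In lung 94.4% of tested genes had a lower mean TPM than Fcgr4, and in tumor this share was 70.7%.

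Fcgr1 was the scarcest of the 7 genes in each library. Its values were 8.29 and 14.3 TPM in tumor, against 11.3, 5.73 and 8.70 TPM in lung. The groups overlapped, with tumor library 2 within the lung range and tumor library 3 above it. The difference was 0.36 ± 0.36 (95% interval -0.56 to 1.28, limma adjusted p = 0.428).

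Fcgr2b, the inhibitory receptor, did not pass the test either. It was at 76.2 and 118 TPM in tumor, against 76.5, 56.2 and 89.2 TPM in lung. Tumor library 2 fell within the lung values and tumor library 3 above them. Its difference was 0.38 ± 0.29 (95% interval -0.37 to 1.13, limma adjusted p = 0.307). Among the 7 genes it varied least between the tumor libraries, at 1.55-fold.

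Fcer1g, the shared signalling chain, had the highest mean TPM of the 7 genes in both tissues. It was at 88.1 and 225 TPM in tumor, against 753, 828 and 693 TPM in lung. Every lung value lay above both tumor values. Fcer1g fell in tumor, with a difference of -2.42 ± 0.41 (95% interval -3.48 to -1.35, limma adjusted p = 0.00638), a 4.84-fold lower mean. Its call ended with a replicate block on the title numbers (-2.42, limma adjusted p = 0.0545).

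Syk, the kinase that binds the phosphorylated chain, showed the largest difference of the 7 genes. It was at 11.8 and 43.0 TPM in tumor, against 292, 330.3 and 361 TPM in lung. Tumor library 3 had 3.63 times the level of tumor library 2, and both stood far below the lung values. Syk fell by 3.78 ± 0.53 (95% interval -5.15 to -2.42, limma adjusted p = 0.00368), and its mean was 12.0-fold lower. Its difference lay close to the median of -3.56 for the 30 pan-leukocyte genes. All 30 were called lower, beside 27% of all tested genes.

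Fcgrt, the IgG recycling receptor, was at 16.8 and 37.1 TPM in tumor, against 34.7, 26.7 and 31.5 TPM in lung. The tumor values lay on either side of the whole lung range. The difference was -0.29 ± 0.36 (95% interval -1.21 to 0.63, limma adjusted p = 0.511), and its sign followed the tumor library used, at 0.26 without tumor replicate 2 and -0.83 without tumor replicate 3 (limma adjusted p = 0.376 and 0.0488).

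**Figure D2:**
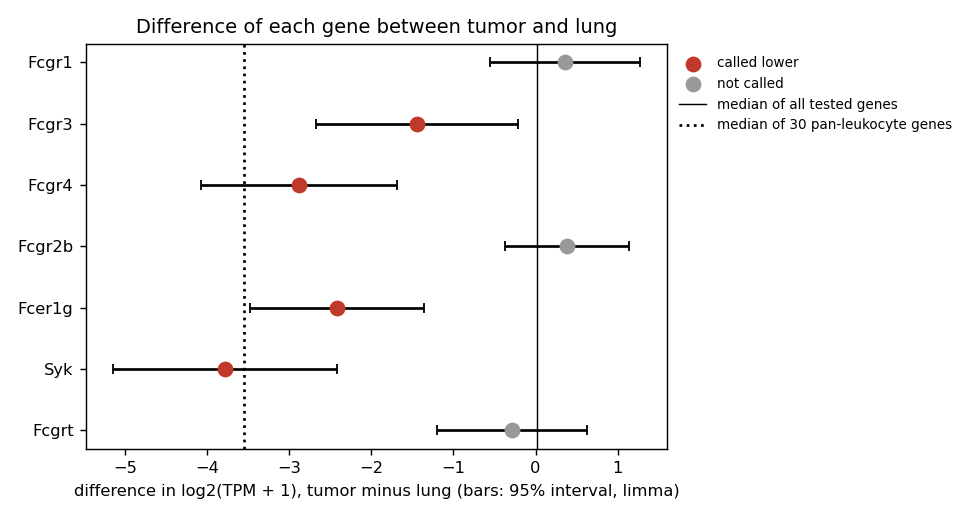
Difference in log2(TPM + 1), tumor minus lung, of each gene with its 95% interval from limma; red points were called lower and grey points were not called. Fcgr3, Fcgr4, Fcer1g and Syk lie below 0, and the dotted line marks the median of 30 pan-leukocyte genes (-3.56). Centred on those genes, the differences of Fcgr3, Fcgr4 and Fcer1g turn positive, and the median of all tested genes is 3.71.

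By level, the order in lung was Fcer1g, Fcgr3, Syk, Fcgr4, Fcgr2b, Fcgrt and Fcgr1. Neighbours in that order had ranges apart from each other except Fcgr3 and Syk, which overlapped. In tumor the order of mean TPM was Fcer1g, Fcgr3, Fcgr2b, Syk, Fcgrt, Fcgr4 and Fcgr1, and the ranges of neighbours overlapped in each step except that between Fcgr2b and Syk. All 7 genes were higher in tumor library 3 than in tumor library 2, by 1.55-fold to 3.63-fold, and so was Ptprc, by 4.07-fold.

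The make-up of the Fc gamma receptors was set by Fcgr3 and Fcgr4 in lung, with a larger share of Fcgr2b in tumor. Fcgr2b held 45.0% and 30.1% of the summed TPM of the 4 receptors in tumor, against 13.1%, 9.66% and 15.4% in lung. Fcgr4 held 6.14% and 8.26% in tumor, against 25.4%, 24.1% and 24.2% in lung. Fcgr3 held 44.0% and 58.0% in tumor, against 59.6%, 65.2% and 59.0% in lung, and Fcgr1 held 4.89% and 3.64% in tumor, against 1.94%, 0.985% and 1.50% in lung. The 4 receptors together came to 169 and 393 TPM in tumor, against 584, 582 and 581 TPM in lung. Shares and ratios of this kind do not move with the scaling of a library.

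**Figure D3:**
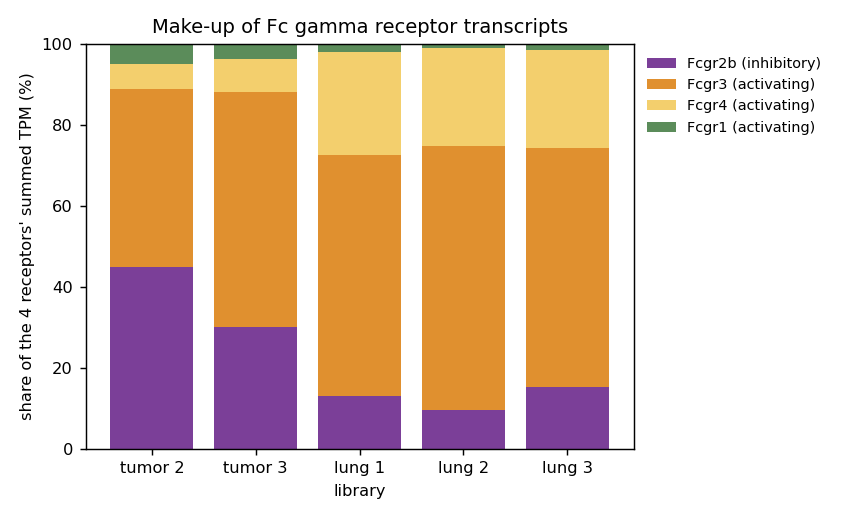
Share of the summed TPM of the 4 Fc gamma receptors held by each, for each tumor and lung library. The inhibitory receptor Fcgr2b (purple) holds 30.1% and 45.0% in the tumor libraries and at most 15.4% in a lung library.

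The ratio of the inhibitory receptor to the activating receptors was tested within libraries. Fcgr2b stood at 0.818 and 0.431 times the sum of Fcgr1, Fcgr3 and Fcgr4 in tumor, against 0.151, 0.107 and 0.181 times in lung. The groups did not overlap, and the log2 ratio was -0.75 ± 0.65 in tumor (SD, n = 2) and -2.81 ± 0.39 in lung (SD, n = 3), a difference of 2.05 or 4.15-fold. The exact two-sided permutation test gave p = 0.1, which is the smallest p that the 10 splits of 5 libraries allow, and 0.1 after adjustment over the 2 ratios tested.

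The chain was set against the same receptors. Fcer1g stood at 0.945 and 0.820 times the summed activating receptors in tumor, against 1.48, 1.57 and 1.41 times in lung. The log2 ratio was -0.18 ± 0.14 in tumor (SD, n = 2) and 0.57 ± 0.08 in lung (SD, n = 3), a difference of -0.76, again without overlap and with the smallest possible exact two-sided permutation p = 0.1. That difference rested on Fcgr3: against Fcgr1 and Fcgr4 alone it was -0.066, with an exact permutation p = 0.9. Syk in turn stood at 0.134 and 0.191 times Fcer1g in tumor, against 0.387, 0.399 and 0.521 times in lung.

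Set against Ptprc in the same library, each of the 7 genes stood higher in tumor than in lung. Fcgr2b was at 413 and 157 TPM per 100 TPM of Ptprc in tumor, against 9.09, 6.07 and 9.31 in lung. Fcgr1 was at 44.9 and 19.0 per 100 in tumor, against 1.35, 0.619 and 0.907 in lung, and Fcgrt was at 91.1 and 49.2 per 100 in tumor, against 4.12, 2.88 and 3.28 in lung. Fcgr3 was at 403 and 302 per 100 in tumor, against 41.3, 41.0 and 35.7 in lung. Fcer1g was at 477 and 299 per 100 in tumor, against 89.5, 89.4 and 72.3 in lung. Differences on this measure were smaller for Fcgr4, at 56.3 and 43.1 per 100 in tumor, against 17.6, 15.2 and 14.7 in lung, and smallest for Syk, at 64.0 and 57.1 per 100 in tumor, against 34.6, 35.6 and 37.6 in lung. Ptprc is 1 gene that itself fell by 4.56 in tumor, more than the pan-leukocyte median of -3.56. That is also more than any of the 7 genes fell, so on average each is higher against it. Centred on the 30 pan-leukocyte genes, the difference of Syk was -0.094 and that of Fcgr4 was 0.81. The values per Ptprc are descriptions without a test.

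**Figure D4:**
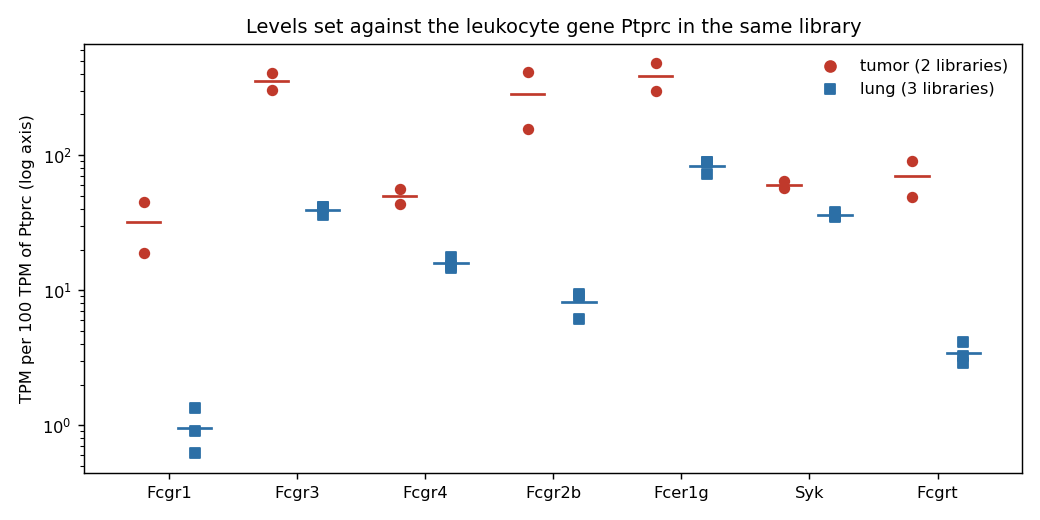
TPM of each gene per 100 TPM of Ptprc in the same library, on a log axis, for tumor (red circles) and lung (blue squares), with group means as lines. All tumor values lie above the lung values, by the widest gap for Fcgr1, Fcgr2b and Fcgrt and the narrowest for Syk; against all transcripts, Fcgr3, Fcgr4, Fcer1g and Syk were lower in tumor.

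Other cells that can carry these receptors also differed between the libraries. Among 15 tested monocyte and macrophage markers 6 were lower and 6 higher in tumor. Beside this and the marker counts below, the shares over all tested genes were 27% lower and 31.6% higher. All 16 monocyte and macrophage markers summed to 1187 and 2790 TPM in tumor and to between 1154 and 1312 TPM in lung, with no member at 0. Single marker genes given here were named after their values were seen. C1qa, a complement gene of tissue macrophages, was at 137 and 309 TPM in tumor, against 15.6, 6.85 and 6.13 TPM in lung, whereas Csf1r, the macrophage growth factor receptor, was at 49.4 and 149 TPM in tumor, against 459, 396 and 459.7 TPM in lung. B cells carry Fcgr2b as their Fc gamma receptor, and all 10 B cell markers were lower in tumor, summing to 3.64 and 15.1 TPM in tumor and to between 193 and 450.1 TPM in lung, with none at 0 in both tumor libraries. Ms4a1, Pax5, Ebf1, Cr2, Fcer2a and Blk were below 1 TPM in both tumor libraries. They passed the filter only through lung, which largely set their direction. Natural killer markers summed to 7.40 and 7.24 TPM in tumor and to between 5.18 and 8.53 TPM in lung, and Klra8 was listed at 0 in both tumor libraries. Eomes made up most of the tumor sum, at 6.28 and 6.08 TPM in tumor, against 0.239, 0.0591 and 0.303 TPM in lung, whereas the cytotoxic granule gene Gzma was at 0.402 and 0.467 TPM in tumor, against 5.41, 3.34 and 4.68 TPM in lung. T cell markers summed to 4.41 and 3.14 TPM in tumor and to between 8.56 and 10.5 TPM in lung, with Cd8b1 listed at 0 in both tumor libraries. Mast cell and basophil markers summed to 14.8 and 8.99 TPM in tumor and to between 40.5 and 69.8 TPM in lung, and of the 5 tested 2 were lower and 1 higher. Most of the lung sum was Kit and Gata2, while the mast cell protease gene Tpsb2 was at 7.39 and 3.26 TPM in tumor, against 1.68, 0 and 0 TPM in lung. Endothelial markers summed to 25.1 and 35.04 TPM in tumor and to between 207 and 360.1 TPM in lung, with no member of either at 0 in both tumor libraries. The part of any of these cells in the levels of Fcgr2b, Fcgr1 and Fcgrt was not tested.

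In the relay that carries the receptor signal, 26 of 36 tested genes fell in tumor and 3 rose, with a median of -2.19. The shares over all tested genes were 27% lower and 31.6% higher. Centred on the pan-leukocyte genes, 0 relay genes were lower and 18 higher, beside 46 lower and 13989 higher of all 16387 tested genes. Skap2, an adaptor of myeloid cells, was at 35.3 and 40.7 TPM in tumor, against 169, 180.2 and 178.5 TPM in lung (-2.19), and Card9, the adaptor that links Syk to NF-kB, at 3.35 and 6.43 TPM in tumor, against 63.8, 66.2 and 79.0 TPM in lung (-3.63). Lyn, a Src family kinase that phosphorylates the receptor motif, was at 16.1 and 33.3 TPM in tumor, against 205, 199.9 and 239.9 TPM in lung (-3.15). The neutrophil Src family kinase Fgr, named after its values were seen, fell too (-4.38), as did Ptk2b, the kinase Pyk2 (-2.33). The family's founding member went the other way: Src was at 84.9 and 73.0 TPM in tumor, against 1.94, 0.850 and 0.913 TPM in lung (5.19, limma adjusted p = 0.000901), in the libraries with the high epithelial sums given above, whose part in its level was not tested. Shc1 and Blnk, the remaining risers (0.60 and 0.98), were also named after their values were seen. With lung replicate 1 or lung replicate 3 left out, 1 relay gene was called higher, beside 4669 and 4594 of all 16387 tested genes. Fewer relay genes were also called higher without tumor replicate 2 or tumor replicate 3, fits with 1 tumor library, and so were fewer of all tested genes.

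Inhibitors of the pathway fell about as widely, 18 of 25 lower and 4 higher in tumor, with a median of -2.47. Among all tested genes 27% were lower and 31.6% higher. Centred on the pan-leukocyte genes, 0 inhibitors were lower and 12 higher, beside 46 lower and 13989 higher of all 16387 tested genes. Inpp5d, the phosphatase recruited by Fcgr2b, was at 20.8 and 76.5 TPM in tumor, against 342, 348 and 482 TPM in lung (-3.23, limma adjusted p = 0.00672). Fcgr2b itself was called in neither direction. Ptpn6, the phosphatase SHP-1, was at 55.5 and 124 TPM in tumor, against 893, 601 and 673 TPM in lung (-3.09). The inhibitory surface receptors Pirb, Pilra and Clec12a fell (-3.99, -3.49 and -3.78). Csk, which restrains Src family kinases, fell by 1.54. The risers, named after their values were seen, were Inppl1, the related phosphatase SHIP2 (3.02), Dok1 (2.30), Dok2 (1.73) and Ptpn11 (0.64). Fewer inhibitors were called higher without tumor replicate 2 or tumor replicate 3, fits with 1 tumor library, and so were fewer of all tested genes.

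In a list of receptors and chains drawn up around Fcer1g and its relative Tyrobp, 17 of 20 tested genes fell and 1 rose. Most of the list signals through these adaptors, but Clec7a, Hcst and Cd247 were also in it. The list median was -3.49, and over all tested genes 27% were lower and 31.6% higher. After the pan-leukocyte centring 0 of the list were lower and 3 higher, beside 46 lower and 13989 higher of all 16387 tested genes. Tyrobp, the adaptor DAP12, was at 98.2 and 228 TPM in tumor, against 1382, 1522 and 1031 TPM in lung (-3.10). Pira2, an activating receptor that pairs with Fcer1g, fell by 4.12, and Sirpb1a, Cd300lb and Trem3 fell too (-3.55, -3.86 and -4.46). Itgam, the integrin chain CD11b, was at 28.2 and 74.8 TPM in tumor, against 361, 402 and 408 TPM in lung (-3.05). The riser was Trem2, a lipid receptor of macrophages, at 14.8 and 25.9 TPM in tumor, against 9.97, 9.32 and 5.18 TPM in lung (1.21), a call lost when any 1 library was left out. Trem2 was named after its values were seen.

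In the list of other antibody receptors and family relatives, 4 of 7 tested genes were lower in tumor and 2 higher. All tested genes had 27% lower and 31.6% higher. After the pan-leukocyte centring 0 of the list were lower and 3 higher, beside 46 lower and 13989 higher of all 16387 tested genes. Fcer2a, the low-affinity IgE receptor CD23, fell (-2.80), as did the B cell receptor relative Fcrl1 (-3.01), the IgM receptor gene Fcmr (-2.87) and Fcrla, named after its values were seen (-3.51). Fewer of the list were called lower without tumor replicate 2, a fit with 1 tumor library, and so were fewer of all tested genes. Fcer2a, Fcrl1 and Fcrla passed the filter only through lung, with tumor means of 0.479, 0.575 and 0.521 TPM. Fcrlb passed it only through tumor, with a lung mean of 0.373 TPM. The directions of these 4 genes were thus largely set by the filter. Fcrlb was at 4.04 and 5.27 TPM in tumor, against 0.175, 0.249 and 0.694 TPM in lung (2.05), and Fcrls, also named after its values were seen, at 14.6 and 46.6 TPM in tumor, against 2.66, 1.38 and 1.15 TPM in lung (3.36). Of 12 immunoglobulin chain genes 7 passed the filter, none of them an IgG heavy chain. All 7 of these fell, beside 27% of all tested genes. Igha, Ighd, Iglc1, Iglc2 and Iglc3 passed the filter only through lung, with tumor means of 0.167, 0.240, 0.0772, 0.274 and 0.0804 TPM. The fall of those genes was thus largely set by the filter. After the pan-leukocyte centring 2 fell, beside 46 of all 16387 tested genes. The 12 summed to 2.59 and 14.2 TPM in tumor and to between 369.7 and 855 TPM in lung. Igkc (-6.11), Ighm (-5.71), Ighd (-4.30) and Igha (-2.49) fell, beside the lower B cell marker sums given above, whose part was not tested. The IgG heavy chain genes were too low to be tested in either tissue. Ighg2b, Ighg2c and Ighg3 were listed at 0 in both tumor libraries, and their highest lung values were 0.365, 0.233 and 0.542 TPM, while Ighg1 was at 0.0383 and 0.0789 TPM in tumor, against 0.0546, 0.499 and 0.271 TPM in lung.

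Of the partner and recycling genes of Fcgrt, 5 of 13 were lower and 3 higher in tumor, with a median of -0.20, beside 27% lower and 31.6% higher over all tested genes. With the replicate block 3 were called lower, beside 3449 of all 16387 tested genes. After the pan-leukocyte centring 0 of the list were lower and 12 higher, beside 46 lower and 13989 higher of all 16387 tested genes. B2m, the light chain of FcRn and of class I MHC, was at 305 and 408 TPM in tumor, against 1460.4, 1478 and 1266 TPM in lung (-1.98, limma adjusted p = 0.00166). Fcgrt therefore stood at 5.52% and 9.07% of the B2m level in tumor, against 2.37%, 1.81% and 2.49% in lung. Rab11fip1, an effector of recycling endosomes, fell by 3.42. Rab4a, a GTPase of early recycling, rose (10.2 and 7.29 TPM in tumor, against 0.808, 0.528 and 0.996 TPM in lung, 2.45), as did Myo5b, the motor of epithelial recycling endosomes (16.8 and 21.0 TPM in tumor, against 1.08, 0.379 and 0.813 TPM in lung, 3.51), and Rab11fip2, which was named after its values were seen. Rab4a and Myo5b, with lung means of 0.777 and 0.757 TPM, passed the filter only through tumor, which largely set their direction.

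**Figure D5:**
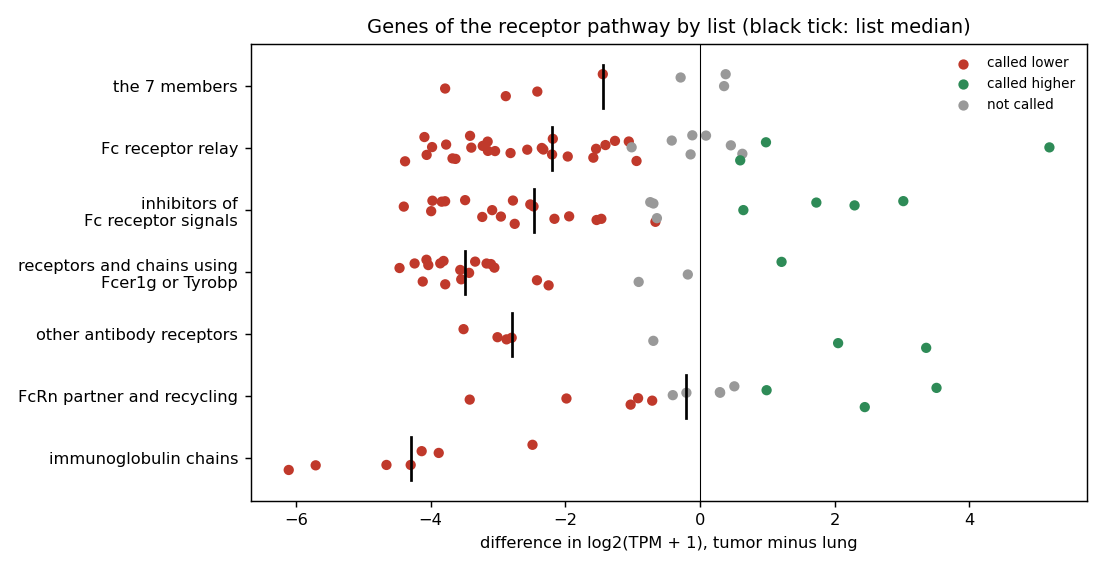
Difference in log2(TPM + 1), tumor minus lung, of each tested gene in the receptor family and the pathway lists; colours give the call and black ticks the list medians, which are -2.19 for the relay, -2.47 for the inhibitors and -0.20 for the FcRn list. Centred on 30 pan-leukocyte genes, 0 genes of the relay, the inhibitors and the FcRn list are called lower. Of all 16387 tested genes, that centring calls 46 lower and 13989 higher.

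The genes of the family lie mostly together. In GRCm38, by GENCODE M21, Fcgr2b spans chr1:170958617-170976547 (minus strand), Fcgr4 chr1:171018920-171029761 (plus strand) and Fcgr3 chr1:171051174-171064935 (minus strand), a cluster of 106.3 kb. Fcer1g starts 164.6 kb beyond it, at chr1:171229572-171234365 (minus strand). Fcgr1 lies at chr3:96282909-96293969 (minus strand), Fcgrt at chr7:45092990-45103851 (minus strand) and Syk at chr13:52583173-52648792 (plus strand). Values of Fcgr2b and Fcgr3 carry an extra uncertainty, because their transcripts share sequence and Salmon divides such reads by a model: 13.4% of the stretches of 31 bases in Fcgr3 transcripts also occur in Fcgr2b transcripts, and 4.15% of those of Fcgr2b occur in Fcgr3. Fcgr1 and Fcer1g shared none with any other gene. The ratio of Fcgr2b to the activating receptors without Fcgr3 differed by 2.75 in log2, in the same direction. That ratio still uses the Fcgr2b value, so it cannot settle this uncertainty. The longest run common to transcripts of both genes has 129 bases, and it is shown because a read pair wholly within it matches both. It is found in 5 of 7 Fcgr2b and 3 of 4 Fcgr3 transcripts of GENCODE M21.

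Run shared by Fcgr2b and Fcgr3: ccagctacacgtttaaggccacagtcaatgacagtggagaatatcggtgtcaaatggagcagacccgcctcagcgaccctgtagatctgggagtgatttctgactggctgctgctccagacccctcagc

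Promoter windows from RefSeq (GRCm38.p6, 250 bases before to 50 after a start site) were matched for all 7 genes, 9 windows in all because Fcgr3 and Syk have 2 each. They were searched on both strands for GAGGAA, the core bound by the myeloid factor PU.1, which 28.3% of all 32851 windows hold. The longer GAGGAAGT, which contains that core, is held by 3.20% of all windows and TTCNNNGAA, the interferon-gamma activation site bound by STAT factors, by 8.30%. Fcgr4, both Fcgr3 windows, Fcgr1 and 1 of the Syk windows held GAGGAA, Fcgr4 alone the longer form and Fcgr1 alone the STAT site. None was found in the windows of Fcgr2b, Fcer1g or Fcgrt. The windows of the 3 activating receptors are shown 5′ to 3′ on the gene's strand with these matches in capitals, the letters on the opposite strand reading TTCCTC: Fcgr4 at chr1:171018676-171018975, the upstream Fcgr3 window at chr1:171059354-171059653 and Fcgr1 at chr3:96293920-96294219. In Fcgr1 the first match is the STAT site. Both Fcgr3 windows lie inside the GENCODE M21 span of that gene given above, not at its 5′ end.

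Fcgr4: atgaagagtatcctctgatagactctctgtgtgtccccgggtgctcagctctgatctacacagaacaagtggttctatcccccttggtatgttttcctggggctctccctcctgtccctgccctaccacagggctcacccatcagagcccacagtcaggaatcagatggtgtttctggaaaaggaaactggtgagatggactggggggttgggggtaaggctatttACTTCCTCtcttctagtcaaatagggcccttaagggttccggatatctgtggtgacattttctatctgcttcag

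Fcgr3: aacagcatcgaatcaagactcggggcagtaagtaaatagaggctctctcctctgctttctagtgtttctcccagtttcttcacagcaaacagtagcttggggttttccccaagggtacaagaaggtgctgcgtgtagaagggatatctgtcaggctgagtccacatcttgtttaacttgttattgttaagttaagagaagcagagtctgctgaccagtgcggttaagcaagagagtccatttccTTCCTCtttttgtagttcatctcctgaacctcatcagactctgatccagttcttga

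Fcgr1: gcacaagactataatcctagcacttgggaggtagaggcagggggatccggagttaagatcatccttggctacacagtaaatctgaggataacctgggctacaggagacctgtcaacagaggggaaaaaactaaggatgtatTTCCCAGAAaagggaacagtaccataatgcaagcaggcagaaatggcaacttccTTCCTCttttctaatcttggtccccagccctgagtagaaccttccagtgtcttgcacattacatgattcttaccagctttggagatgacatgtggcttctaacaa

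Of the genes with such a match, Fcgr4, Fcgr3 and Syk fell and Fcgr1 was not called, and of those without, Fcer1g fell and Fcgr2b and Fcgrt were not called. Spi1, which encodes PU.1 and was named after its values were seen, was at 24.3 and 71.3 TPM in tumor, against 564, 648 and 557 TPM in lung.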

How the data were processed

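RNA-seq of sorted cells with the label PMN-MDSC, which the markers of the tumor libraries go against, was taken from the deposited table of 2 tumor and 3 lung libraries. The treatment label gives the tissue, and the titles number the replicates. Salmon 0.9.1 with GENCODE mouse M24 transcripts was the authors' quantifier, per the labels and design text, and TPM were deposited, which sum to 1000000 per library. TPM is a share, so a rise in some transcripts lowers the others, and depth is not kept. The authors' deposited p-values and false discovery rates served here to show the authors' own calls, and their fold changes were not used here. A set of 26 rows held dates in place of symbols (0.0650% to 0.0826% of TPM) and was left out.

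The 16387 genes whose mean TPM was 1 or more entered a two-sided limma fit (version 3.58.1, R version 4.3.3) of log2(TPM + 1) with an intensity trend. The 0.05 and 1.5-fold thresholds are those of the design text. In simulated data without any difference and with independent normal noise, the fit called 0 genes. Such data lack the shared differences between the 2 tumor libraries, so the simulation cannot show how well the calls hold here. Ratios were tested by exact permutation over libraries. Members, lists (6 of the pathway, 9 of cell type markers) and tests were chosen with earlier results of these data known. In each pathway list the text names up to 4 called genes with the smallest p, and 7 fixed genes (Lyn, Inpp5d, Ptpn6, Tyrobp, B2m, Itgam and Ptprc); others are marked as named after their values were seen. Of the symbols listed, Pira6, Faim3 and Cd23 were not matched in the table. The pan-leukocyte list shares 5 genes with the pathway lists. Coordinates and transcripts are of GENCODE M21 (GRCm38), matched by symbol. Alternatives were other pseudocounts, filters, variance models and scalings, a replicate block, fold limits, and leaving out each library. Some genes are not reported here.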

Additional observations from a re-analysis of the deposited data

How the results depend on the processing

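With depth unknown and 2 tumor libraries, the spread between libraries limits every value, and no count-based error could be given. The calls of Syk and Fcgr4 held under all alternatives except centring on the 30 pan-leukocyte genes, and that of Fcer1g under all but this and the replicate block. That centring put the median over all genes at 3.71 in place of 0.018, called 13989 genes higher and 46 lower, and gave differences of -0.094 for Syk, 0.81 for Fcgr4, 1.28 for Fcer1g, 2.25 for Fcgr3, 3.40 for Fcgrt, 4.05 for Fcgr1 and 4.07 for Fcgr2b, so that 0 of the 7 genes were called lower and 4 higher. The title numbers share only a number as far as the labels say (same-numbered deviations from group means correlated at 0.0034 and 0.083 over genes, and those of lung 1 and tumor 2 at 0.082). With 2 tumor libraries, their deviations mirror each other, so these correlations cannot tell whether animals were shared. With the replicate block 2 of the 7 genes were called lower, beside 3449 of all 16387 tested genes. The differences of Fcer1g and Fcgr3 were then -2.42 and -1.46 (limma adjusted p = 0.0545 and 0.139). The call of Fcgr3 was also lost with no filter and in limma without trend (both -1.44), without mitochondrial genes (-1.31, a rescaling that put the median of all genes at 0.129), with upper quartile scaling (-1.46) and with quantile normalization (-1.06); its adjusted p over the alternatives that kept it negative ran from 0.00443 to 0.148. With 1 library left out, the difference of Fcgr3 ran from -2.24 to -0.64, that of Fcgr1 from -0.00087 to 0.72 and that of Fcgrt from -0.83 to 0.26; a lone tumor library is assumed to vary like the other groups. Without tumor replicate 2, 3454 genes were called higher and 2831 lower, against 5178 and 4431. Both ratios kept their sign in the alternatives run for them, the Fcer1g ratio falling to -0.066 without Fcgr3, and of 192 list counts under alternatives 162 stayed within 1.5 times. The causes of these changes were not tested.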

Other observations

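Around the Fc gamma receptor cluster, a window of 250 kb to either side, chosen after the data were seen, held 22 tested genes, 4 of them receptors or chain genes described above, 3 of which were called lower. Of the other 18 genes 4 were called lower in tumor and 5 higher, beside 27% lower and 31.6% higher over all tested genes. Beside the receptors, Fcrlb and Fcrla lie next to each other on the same strand and were called in opposite directions, at 2.05 and -3.51. Sdhc, a subunit of respiratory complex II between Fcgr3 and Fcer1g, was at 97.5 and 82.5 TPM in tumor, against 36.05, 28.04 and 30.2 TPM in lung (1.49). Adamts4, a secreted protease, was at 7.83 and 4.16 TPM in tumor, against 0.0436, 0.0294 and 0.0218 TPM in lung (2.71).

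Likeness of pattern was measured as the root mean square difference of centred log2(TPM + 1) profiles over the 5 libraries. The nearest genes to Syk were Siglecf (0.057), Itgb2 (0.086) and Prex1 (0.090), and those to Fcer1g were Csrnp1 (0.043), Srgn (0.068) and Ppp1r3b (0.071). Fcgr4 was nearest to Emilin2 (0.067), Ccrl2 (0.071) and Lrrc25 (0.087), and Fcgr3 to 1700023B13Rik (0.10), Egr2 (0.11) and Pfkfb3 (0.12). The nearest to Fcgr2b were Mrtfb (0.050), Mapk8 (0.062) and Taf3 (0.064), to Fcgr1 Slc12a7 (0.034), Atg14 (0.045) and 1810062O18Rik (0.074), and to Fcgrt Abca9 (0.080), Gm41077 (0.084) and Creld1 (0.091). With 5 libraries of 2 tissues, many genes share such profiles.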
